A study of Mus musculus with 20 samples.

Results

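Livers of mice treated with T3 (triiodothyronine, the active thyroid hormone) were set directly against livers of mice treated with glucagon, the pancreatic hormone of fasting. The comparison holds 8 of the series' 20 RNA-seq libraries, chosen by their labels alone, and each library represents 1 male mouse. The mice were kept on a western diet and received their treatment every day over 16 days. The T3 group (T3 1 to 4) and the glucagon group (glucagon 1 to 4) have 4 mice each. The other 12 libraries, used for the estimate of spread and as levels beside the comparison, are 4 of glucagon and T3 given together (combination), 4 of a set coded Cp, taken as the single molecule that joins glucagon and T3 by elimination, and 4 controls. Every group shared the diet. No label states the strain, age, dose or hour of collection.

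Glucagon binds a receptor on hepatocytes that couples through a stimulatory G protein to adenylyl cyclase. The resulting cyclic AMP activates protein kinase A (PKA), which phosphorylates the transcription factor CREB, and in liver this pathway is known for raising glucose output and amino acid breakdown. T3 enters cells through carriers and binds nuclear receptors (Thra and Thrb), which pair with RXR on DNA and change transcription of genes of lipid, cholesterol and energy metabolism. Hepatocytes hold mostly the Thrb form.

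Values are read counts per gene symbol. Levels below are CPM (counts scaled to library size) after TMM normalisation, changes are log2 of T3 over glucagon ± standard error, and a gene is called at an adjusted p under 0.05 (edgeR quasi-likelihood test, two-sided, Benjamini-Hochberg over 12907 tested genes). Total counts ran from 6091917 to 7996156 in T3 livers and from 11988039 to 19931718 in glucagon livers, so that 3 counts correspond to 0.354 to 0.479 CPM in T3 libraries and 0.179 to 0.302 CPM in glucagon libraries. Per the labels, all 4 T3 libraries were run in sequencing lane 5 and glucagon 1 to 4 in lanes 1 to 4, so that lane and treatment cannot be told apart between the groups; the combination libraries, which also carried T3, were run in lanes 1 to 4. The biological coefficient of variation was 19.2% within the T3 group, 26.1% within the glucagon group and 43.2% within the controls. In the fit of all 20 libraries, which gave the tests, it was 27.8%.

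A pair of libraries stood apart. Glucagon 3 held RNA of genes known from muscle and lung: the summed level of 22 tested skeletal muscle genes was 4270 CPM there, against 37 to 105 CPM in the other glucagon livers and 30.3 to 91.2 CPM in T3 livers, and Sftpc, a lung surfactant protein, had 2133 counts against at most 2 in the other 7 libraries. T3 3 held genes known from the adrenal cortex and brown fat: Cyp11a1 had 253 counts, Cyp11b1 197 and Ucp1 115, against at most 4 in the other 7. Of 22 skeletal muscle genes 8 were called lower in T3, Myh2 and Neb among them, and without glucagon 3 edgeR called 0 and found 0 at an unadjusted p under 0.05. The 8 became 2 without any 1 of the T3 libraries, and 16 without control 2, which held 1100 CPM of these genes against 49.2 to 78.2 CPM in the other controls. Liver identity was clear in every library: 21 hepatocyte genes, including albumin, summed to 119000 to 167000 CPM in T3 livers and 203000 to 266000 CPM in glucagon livers.

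The T3 and glucagon livers differed in 31.3% of tested genes. Of the 4042 genes called, 2114 were higher in T3 (16.4% of those tested) and 1928 were lower (14.9%), and 1211 of the higher and 894 of the lower genes differed by more than 2-fold. The 4 T3 libraries did not overlap the 4 glucagon libraries in 4940 genes (38.3%), of which 3681 were called. Leaving out glucagon 3 and T3 3 together, a choice made after the data were seen, left 2842 calls, 1468 higher and 1374 lower. The median log2 change over all tested genes was 0.00. Control livers lay nearer the T3 mean than the glucagon mean in 49.5% of the higher and 55.5% of the lower genes, and combination livers lay nearer T3 in 82.9% and 76.3% of them, as a description of group means.

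**Figure D1:**
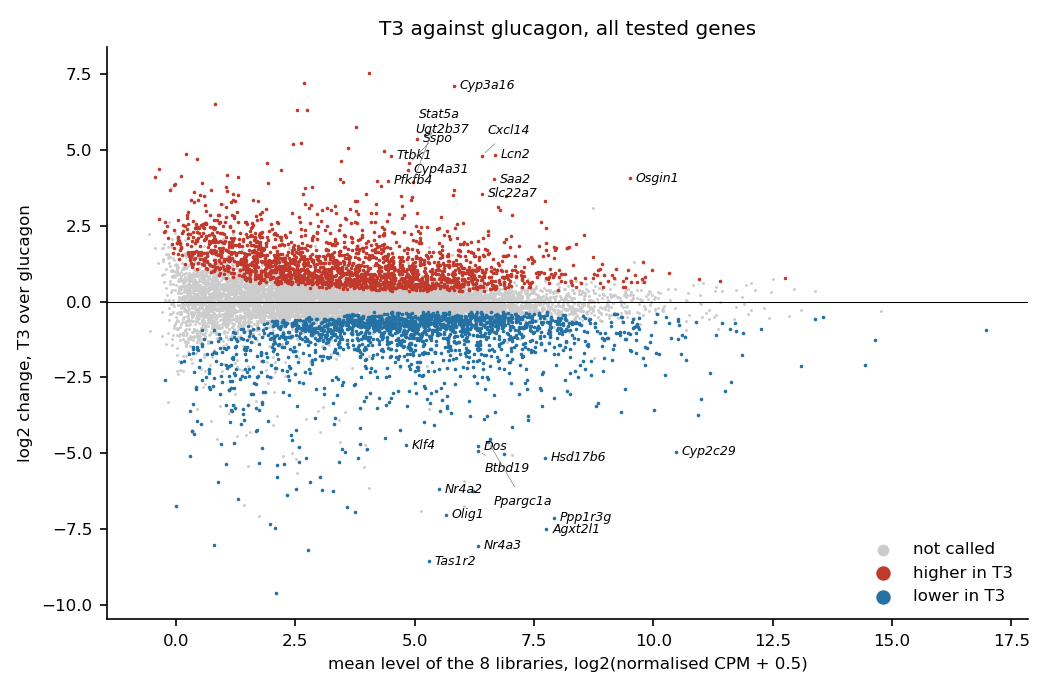
Each point is 1 of 12907 tested genes, with the mean level of the 8 libraries on the x axis (log2 of normalised CPM + 0.5) and the log2 change of T3 over glucagon on the y axis. Red points are the 2114 genes called higher in T3, blue points the 1928 called lower, grey points the rest, and the 24 labelled genes are the leading ones that average 20 CPM or more and do not overlap between groups.

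The genes most reduced in T3 relative to glucagon livers were of several kinds, a taste receptor and metabolic enzymes among them. Their levels in controls, where given, lay at the T3 level for some and between the groups for others. Tas1r2, a subunit of the sweet taste receptor (chr4:139653538-139670280, plus strand, GRCm38), had 0.123, 0.262, 0.236 and 0.16 CPM in T3 1 to 4, against 45.2, 96.3, 83.8 and 85.8 CPM in glucagon 1 to 4. Each T3 value lies under the level of 3 counts, so the fitted change of -8.56 ± 0.55 depends on the prior count (edgeR adjusted p = 8.35e-10). Control livers held 0 to 0.294 CPM, which is the range of the T3 livers and not of the glucagon livers. Agxt2l1 (annotated as Etnppl), which breaks down phosphoethanolamine, had 3.19, 3.41, 1.89 and 0.799 CPM in T3 1 to 4, against 386, 507, 457 and 372 CPM in glucagon 1 to 4. For Agxt2l1 the log2 change was -7.51 ± 0.50 (edgeR adjusted p = 1.59e-09). Here the controls, at 21.7 to 84.8 CPM, lay between the groups, with every T3 liver under every control. Olig1, a helix-loop-helix factor named for its role in oligodendrocytes, had 0.858, 1.05, 0.59 and 0.479 CPM in T3 1 to 4, against 101, 98.9, 93.5 and 103 CPM in glucagon 1 to 4. For Olig1 the log2 change was -7.02 ± 0.55 (edgeR adjusted p = 2.12e-08). The other leading genes were Hsd17b6, a hydroxysteroid dehydrogenase (-5.14 ± 0.72), Cyp2c29, a cytochrome P450 (-4.96 ± 0.76), Btbd19 (-4.93 ± 0.26) and Dos, a calcium channel regulator (-4.76 ± 0.38), and their groups did not overlap. Btbd19 spread least of these, at 4.6 to 6.07 CPM in T3 livers and 134 to 174 CPM in glucagon livers.

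The genes most raised in T3 relative to glucagon livers were of several kinds, cytochrome P450 enzymes and a transporter among them. Cyp3a16, a cytochrome P450 typical of female liver (chr5:145436309-145469723, minus strand, GRCm38), had 298, 37.9, 71.8 and 38.7 CPM in T3 1 to 4, against 0.657, 0.905, 1.22 and 0.302 CPM in glucagon 1 to 4. For Cyp3a16 the log2 change was 7.12 ± 1.14 (edgeR adjusted p = 8.54e-05). T3 1 stood far above the other T3 livers, and without it the log2 change was 5.95; reads of near-identical Cyp3a, Cyp4a, Cyp2c, Ugt, Ces and Mup genes may be split between copies, so their values are uncertain. Sspo, which encodes the secreted protein SCO-spondin, had 72.8, 84, 47.3 and 50.3 CPM in T3 1 to 4, against 1.55, 2.2, 1.01 and 1.31 CPM in glucagon 1 to 4. For Sspo the log2 change was 5.37 ± 0.52 (edgeR adjusted p = 2.41e-07). Osgin1, an oxidative stress-induced growth inhibitor and the most abundant of the leading genes, had 1407, 1885, 743 and 1444 CPM in T3 1 to 4, against 88.1, 57.9, 56.6 and 123 CPM in glucagon 1 to 4. For Osgin1 the log2 change was 4.07 ± 0.46 (edgeR adjusted p = 1.69e-06). All T3 livers exceeded all glucagon livers for these genes, while controls held 116 to 674 CPM of Osgin1. Stat5a, a transcription factor that carries growth hormone signals (chr11:100859351-100885169, plus strand), had 64.7, 56.6, 49.8 and 59.3 CPM in T3 1 to 4, against 4.18, 3.04, 4.89 and 2.72 CPM in glucagon 1 to 4 (log2 change 3.95 ± 0.18, edgeR adjusted p = 1.22e-11), and controls held 8.53 to 12.2 CPM. Only Ppargc1a had a smaller unadjusted p value in the comparison. Slc22a7, an organic anion transporter, had 127, 177, 140.0 and 179 CPM in T3 1 to 4, against 23.6, 10.9, 8.26 and 9.56 CPM in glucagon 1 to 4. For Slc22a7 the log2 change was 3.56 ± 0.39 (edgeR adjusted p = 1.06e-06). Further leading genes were Ttbk1, a kinase of tau and tubulin (4.81 ± 0.38), Ugt2b37, a glucuronosyltransferase (4.56 ± 0.46), Cyp4a31 (4.34 ± 0.48), Pfkfb4 (3.99 ± 0.61), the chemokine Cxcl14 (4.82 ± 0.87), and the acute phase proteins Lcn2 (4.84 ± 1.17) and Saa2 (4.04 ± 1.14). Saa2 lost its call without T3 4 (log2 change 2.87, edgeR adjusted p = 0.0544).

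**Figure D2:**
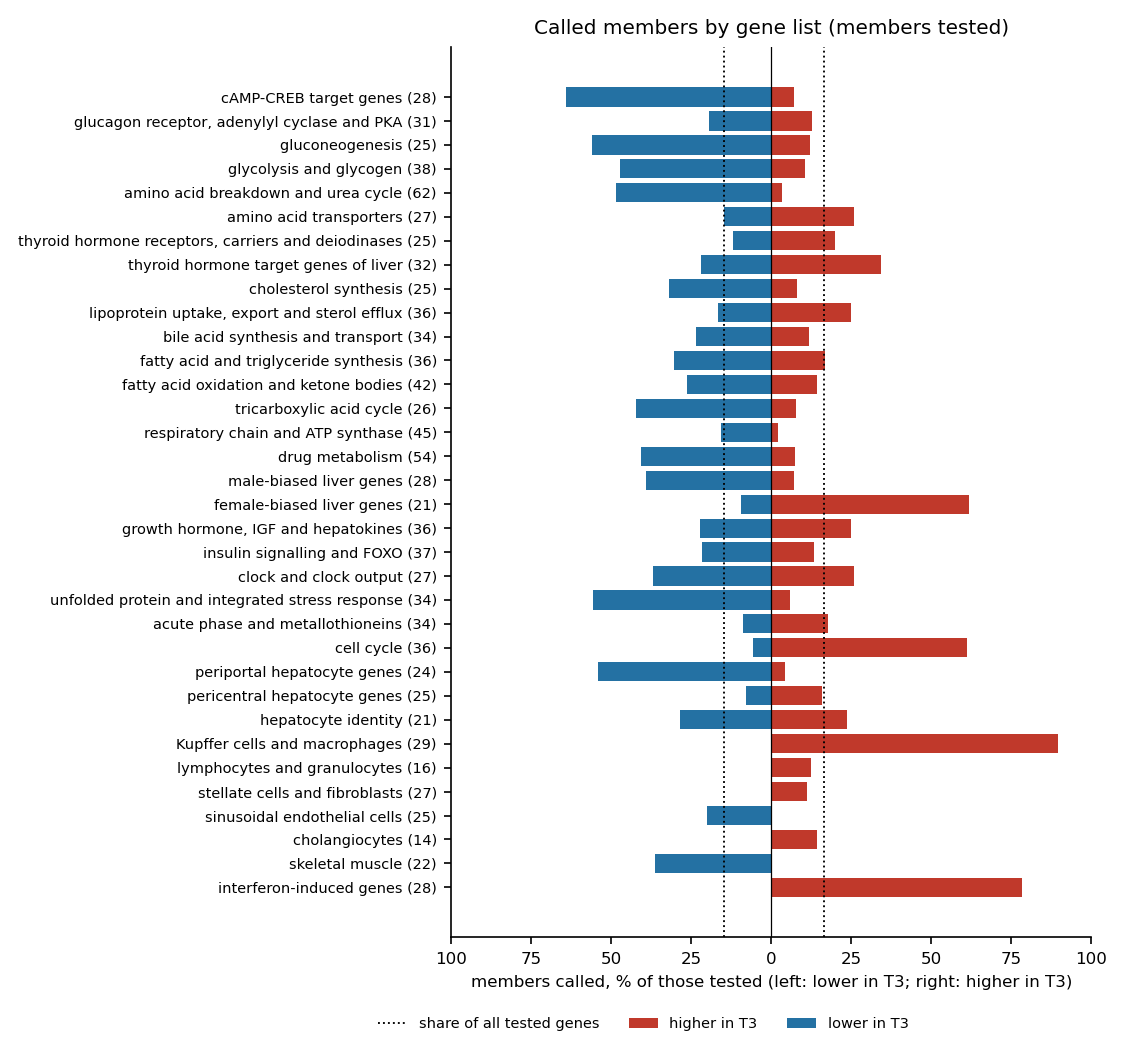
Bars give, for each gene list, the share of its tested members (number in brackets) called higher in T3 (right, red) or lower in T3 (left, blue); dotted lines mark the shares over all tested genes, 16.4% and 14.9%. The cAMP-CREB list reaches furthest to the left with 18 of 28 members, and the Kupffer cell and macrophage list furthest to the right with 26 of 29.

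Target genes of the cAMP-CREB pathway had the highest share of members lower in T3 among the 34 lists described. Of 28 tested members, 18 were lower in T3, 2 were higher and 8 did not pass, with a median log2 change of -2.18. For 17 of the 18 lower members the control mean lay nearer T3 than glucagon, so that the glucagon livers were the ones that stood off. Nr4a3, an orphan nuclear receptor of the immediate early class (chr4:48045153-48086447, plus strand, GRCm38), had 1.1, 0.262, 0.59 and 0.32 CPM in T3 1 to 4, against 135, 193, 169.7 and 137 CPM in glucagon 1 to 4. For Nr4a3 the log2 change was -8.06 ± 0.44 (edgeR adjusted p = 7.41e-11). T3 2 and T3 4 lie under the level of 3 counts, so the size of the change is uncertain; the groups did not overlap, and controls held 0.214 to 0.628 CPM. Nr4a2, its close relative, had 1.35, 1.44, 1.3 and 0.639 CPM in T3 1 to 4, against 117, 114, 67.5 and 57.2 CPM in glucagon 1 to 4 (log2 change -6.20 ± 0.30, edgeR adjusted p = 2.05e-11), and Nr4a1 had 9.93, 8.26, 14.6 and 6.07 CPM in T3 1 to 4, against 199.6, 153, 107 and 73.5 CPM in glucagon 1 to 4. For Nr4a1 the log2 change was -3.77 ± 0.37 (edgeR adjusted p = 2.62e-07). All 3 receptors of the family were therefore higher in every glucagon liver than in any T3 liver.

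Ppargc1a, the coactivator PGC-1 alpha of gluconeogenic and mitochondrial genes (chr5:51454250-51567726, minus strand), had 9.07, 6.16, 5.19 and 8.47 CPM in T3 1 to 4, against 200.2, 190.1, 166 and 156 CPM in glucagon 1 to 4. For Ppargc1a the log2 change was -4.63 ± 0.21 (edgeR adjusted p = 1.22e-11). Control livers held 8.97 to 13.5 CPM and combination livers 11.5 to 16.9 CPM of it, both far under the glucagon livers. Klf4, a zinc finger factor, had 2.58, 2.1, 1.65 and 1.6 CPM in T3 1 to 4, against 45.1, 53.5, 68.5 and 46.7 CPM in glucagon 1 to 4. For Klf4 the log2 change was -4.74 ± 0.38 (edgeR adjusted p = 2.46e-08). Crem, whose short form ICER represses cAMP targets, had 3.56, 3.01, 5.66 and 6.87 CPM in T3 1 to 4, against 79.4, 89.8, 82.1 and 64.9 CPM in glucagon 1 to 4. For Crem the log2 change was -4.06 ± 0.36 (edgeR adjusted p = 8.91e-08). Further lower members were the salt-inducible kinase Sik1 (-2.23 ± 0.31), the insulin receptor substrate Irs2 (-2.50 ± 0.45), and the cAMP phosphodiesterases Pde4d (-2.79 ± 0.22) and Pde4b (-1.38 ± 0.33), which break the messenger down. The members that rose in T3 were Gadd45a, a growth arrest gene (log2 change 2.61 ± 0.39, edgeR adjusted p = 4.29e-05), and Pde4c, another phosphodiesterase (log2 change 0.88 ± 0.23, edgeR adjusted p = 0.00592).

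Promoter windows are shown for the called members of smallest p that hold the core of the cAMP response element (of the cAMP-CREB genes lower in T3) or of the thyroid receptor element (of the thyroid target genes higher in T3), since these are the DNA letters through which the pathways are known to act. Each runs from 250 bases before to 50 after a start of the gene (RefSeq, GRCm38.p6) and is written 5′ to 3′ along the gene. Where a gene had several windows, the first that held the motif is shown, so it need not be at the main start. The Cpt1a window lies downstream of the gene start annotated at chr19:3322334. Capitals mark TGACG or its reverse complement CGTCA in the cAMP-CREB genes, and AGGTCA or its reverse complement TGACCT in the thyroid target genes. The windows are chr5:51567676-51567975, minus strand, for Ppargc1a, chr2:57123954-57124253, minus strand, for Nr4a2, chr4:48045055-48045354, plus strand, for Nr4a3, chr8:128358823-128359122, plus strand, for Nrp1 and chr19:3323051-3323350, plus strand, for Cpt1a.
Ppargc1a: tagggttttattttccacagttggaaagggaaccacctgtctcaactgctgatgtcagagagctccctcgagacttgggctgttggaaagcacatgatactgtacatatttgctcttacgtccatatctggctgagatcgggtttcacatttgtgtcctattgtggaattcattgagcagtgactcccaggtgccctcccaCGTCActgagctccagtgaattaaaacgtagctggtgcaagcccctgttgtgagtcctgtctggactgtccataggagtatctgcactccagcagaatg
Nr4a2: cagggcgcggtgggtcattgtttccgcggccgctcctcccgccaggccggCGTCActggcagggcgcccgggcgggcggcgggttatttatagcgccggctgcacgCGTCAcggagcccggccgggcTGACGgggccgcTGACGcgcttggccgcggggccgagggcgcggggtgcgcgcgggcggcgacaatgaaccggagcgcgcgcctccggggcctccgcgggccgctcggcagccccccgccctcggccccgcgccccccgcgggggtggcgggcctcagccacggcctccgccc
Nr4a3: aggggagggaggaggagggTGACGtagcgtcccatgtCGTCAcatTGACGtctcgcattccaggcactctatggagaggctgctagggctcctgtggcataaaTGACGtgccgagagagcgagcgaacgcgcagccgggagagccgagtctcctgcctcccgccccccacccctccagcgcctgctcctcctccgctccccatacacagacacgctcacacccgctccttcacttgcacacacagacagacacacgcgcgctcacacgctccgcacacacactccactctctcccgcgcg
Nrp1: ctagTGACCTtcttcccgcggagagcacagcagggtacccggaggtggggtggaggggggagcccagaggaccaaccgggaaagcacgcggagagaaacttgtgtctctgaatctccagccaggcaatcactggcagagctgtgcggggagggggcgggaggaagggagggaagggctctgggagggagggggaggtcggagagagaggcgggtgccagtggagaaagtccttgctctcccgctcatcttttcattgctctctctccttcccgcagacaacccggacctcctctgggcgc
Cpt1a: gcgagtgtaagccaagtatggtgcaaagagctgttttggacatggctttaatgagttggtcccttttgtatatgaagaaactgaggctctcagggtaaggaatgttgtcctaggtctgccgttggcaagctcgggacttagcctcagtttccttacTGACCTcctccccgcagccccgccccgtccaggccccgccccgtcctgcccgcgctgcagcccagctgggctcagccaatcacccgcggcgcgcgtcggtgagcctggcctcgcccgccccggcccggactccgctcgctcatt
Nr4a2 and Nr4a3 hold 4 copies of the TGACG core each and Ppargc1a holds 1, on either strand. Of the 18 lower cAMP-CREB genes, 15 had a window and 10 of these held TGACG, against 34.6% of the 10245 tested genes with a window, 41.2% of those called lower and 27.2% of those called higher. The full element TGACGTCA, which contains the core, was in 1 of the 15, against 3.39% of tested, 5.65% of lower and 2.34% of higher genes. Of the 11 thyroid target genes higher in T3, 7 had a window and 2 of these, Nrp1 and Cpt1a, held AGGTCA, against 15.6% of tested, 17.6% of higher and 16.2% of lower genes. A repeat of AGGTCA spaced by 4 bases was in 0 of the 10245. A gene with several windows was counted where any of them held the letters, so these shares also depend on the number of windows per gene. The matches describe letters in the windows on both strands and are no evidence of binding.

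**Figure D3:**
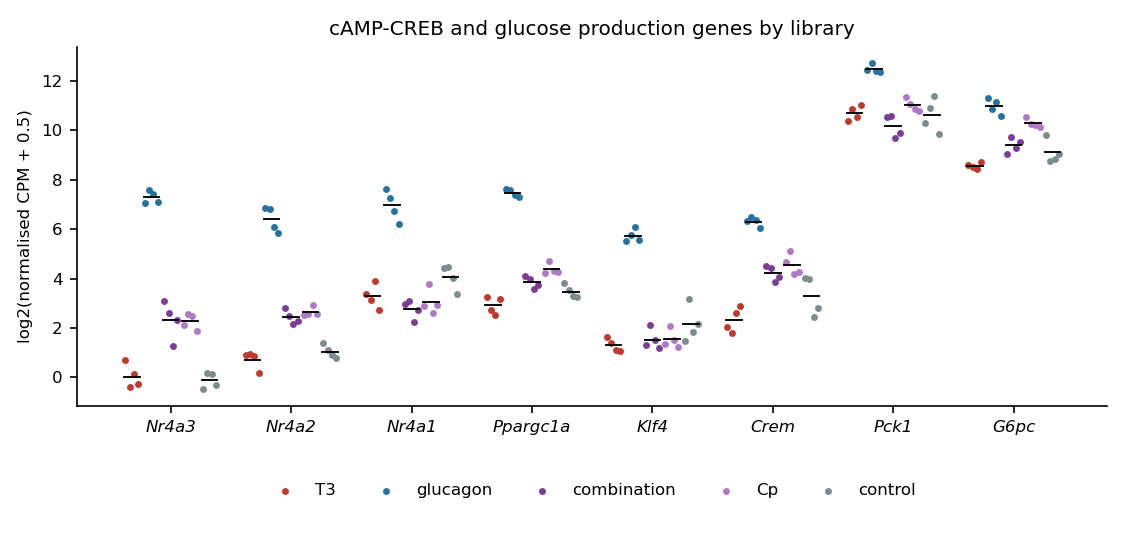
Points are single libraries, coloured by group in the order T3, glucagon, combination, Cp and control, and black lines are group means of log2(normalised CPM + 0.5) for 8 cAMP-CREB and glucose production genes. For Nr4a3, Nr4a2, Ppargc1a, Klf4 and G6pc the 4 glucagon libraries lie above the T3 and control libraries.

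The components that carry the glucagon signal were called at about the background share. Of 31 tested genes for the receptor, adenylyl cyclases, PKA and CREB, 4 were higher and 6 lower in T3, with a median log2 change of 0.08. Gcgr, the glucagon receptor, had 528, 417, 333 and 455 CPM in T3 1 to 4, against 295, 274, 248 and 308 CPM in glucagon 1 to 4. For Gcgr the log2 change was 0.62 ± 0.23 (edgeR adjusted p = 0.0399). The groups did not overlap, but the call was lost without T3 1, T3 2 or T3 4, or without any 1 of the glucagon libraries (edgeR adjusted p up to 0.125). Adcy1, an adenylyl cyclase, had 1.23, 1.18, 1.3 and 3.04 CPM in T3 1 to 4, against 24.5, 19.1, 11 and 12.6 CPM in glucagon 1 to 4 (log2 change -3.35 ± 0.35, edgeR adjusted p = 6.5e-07), whereas Adcy7, another member of that family, had 27.5, 17.6, 27.2 and 18.1 CPM in T3 1 to 4, against 5.25, 3.88, 7.54 and 5.13 CPM in glucagon 1 to 4. For Adcy7 the log2 change was 2.05 ± 0.31 (edgeR adjusted p = 5.32e-05). Pde3b, a phosphodiesterase activated by insulin, had 21.8, 40.1, 24.9 and 33.7 CPM in T3 1 to 4, against 86.8, 94.9, 93.3 and 84.8 CPM in glucagon 1 to 4. For Pde3b the log2 change was -1.58 ± 0.25 (edgeR adjusted p = 7.16e-05). The 4 higher genes became 2 without T3 1, T3 2, or glucagon 1, 3 or 4.

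Genes of glucose production and of glycogen and sugar handling were lower in T3 livers. In gluconeogenesis 14 of 25 tested members fell and 3 rose (median log2 change -0.53), and in glycolysis and glycogen metabolism 18 of 38 fell and 4 rose (median -0.54). G6pc, the catalytic subunit that releases free glucose, had 388, 364, 347 and 424 CPM in T3 1 to 4, against 2572, 1859, 2291 and 1516 CPM in glucagon 1 to 4. For G6pc the log2 change was -2.44 ± 0.23 (edgeR adjusted p = 2.21e-07). Pck1, the enzyme that makes phosphoenolpyruvate, had 1330.2, 1869, 1478 and 2095 CPM in T3 1 to 4, against 5601, 6757, 5379 and 5314 CPM in glucagon 1 to 4. For Pck1 the log2 change was -1.77 ± 0.28 (edgeR adjusted p = 8.45e-05). Controls held 431 to 906 CPM of G6pc and 916 to 2663 CPM of Pck1, all under the glucagon livers. Got1, the cytosolic aspartate aminotransferase, had 452, 372, 287 and 461 CPM in T3 1 to 4, against 3444, 3632, 3515 and 4083 CPM in glucagon 1 to 4. For Got1 the log2 change was -3.22 ± 0.30 (edgeR adjusted p = 1.74e-07). Fbp1, the fructose bisphosphatase of liver, was also lower (-1.15 ± 0.20), as were the factors Foxo1 (-0.65 ± 0.19) and Klf15 (-1.46 ± 0.20). The 3 genes that rose were the glucocorticoid receptor Nr3c1 (1.06 ± 0.26), Ldha (0.81 ± 0.30) and G6pc3 (0.67 ± 0.23), and 1 of them was called without T3 1 or glucagon 2.

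Ppp1r3g, which targets protein phosphatase 1 to glycogen, had the largest change of the sugar handling list, with 7.73, 1.7, 1.53 and 2.56 CPM in T3 1 to 4, against 747, 566, 306 and 299 CPM in glucagon 1 to 4. For Ppp1r3g the log2 change was -7.13 ± 0.58 (edgeR adjusted p = 3.11e-08). Controls held 13.7 to 44.4 CPM, above every T3 liver and under every glucagon liver. Its relatives Ppp1r3c (-2.31 ± 0.64) and Ppp1r3b (-1.10 ± 0.31) were lower too. Pklr, the pyruvate kinase of liver (-2.48 ± 0.41), Gys2, the glycogen synthase (-0.80 ± 0.19), Pygl, the glycogen phosphorylase (-1.05 ± 0.21) and the glucose carriers Slc2a1 (-1.16 ± 0.14) and Slc2a2 (-0.76 ± 0.23) fell as well, so that enzymes of both glycogen making and glycogen breakdown were lower. Against them stood Pfkfb4, which sets the level of fructose 2,6-bisphosphate, with 48.9, 15.3, 32.6 and 62.3 CPM in T3 1 to 4, against 1.79, 2.52, 3.38 and 2.31 CPM in glucagon 1 to 4. For Pfkfb4 the log2 change was 3.99 ± 0.61 (edgeR adjusted p = 5.77e-05). Hk3, a hexokinase (1.78 ± 0.36), and Pdp2, a phosphatase that activates pyruvate dehydrogenase (0.74 ± 0.22), also rose.

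Genes of many enzymes of amino acid breakdown were lower in T3 than in glucagon livers. Of 62 tested members of amino acid breakdown and the urea cycle, 30 were lower and 2 higher in T3, with a median log2 change of -0.64. Without T3 3 and glucagon 3 together 19 were lower, and without control 2 there were 4 that rose. For 16 of the 30 lower members the control mean lay nearer T3, and for 14 nearer glucagon. Agxt, the alanine-glyoxylate aminotransferase, had 234, 343, 161 and 356 CPM in T3 1 to 4, against 4512, 3488, 3411 and 3129 CPM in glucagon 1 to 4. For Agxt the log2 change was -3.73 ± 0.31 (edgeR adjusted p = 4.17e-08). Tat, the first enzyme of tyrosine breakdown, had 669, 978, 940.2 and 869 CPM in T3 1 to 4, against 5679, 5758, 5130.1 and 5226 CPM in glucagon 1 to 4. For Tat the log2 change was -2.66 ± 0.22 (edgeR adjusted p = 4.28e-08). The groups did not overlap for either gene. Controls held 290 to 434 CPM of Agxt and 1308 to 2077 CPM of Tat, under every glucagon liver for both. In the urea cycle the entry enzyme Cps1 (-1.08 ± 0.21), Otc (-0.93 ± 0.29), Asl (-1.25 ± 0.18) and the ornithine carrier Slc25a15 (-1.81 ± 0.18) were lower. Oat, the ornithine aminotransferase, had 176, 179.8, 134 and 175 CPM in T3 1 to 4, against 1029.7, 650.3, 739 and 843 CPM in glucagon 1 to 4 (log2 change -2.30 ± 0.37, edgeR adjusted p = 0.000105), and Cth, of cysteine synthesis, was lower by a similar amount (-2.29 ± 0.25). The members that rose were Bcat2 (1.73 ± 0.25), a branched-chain aminotransferase, and Bckdk (0.60 ± 0.13), the kinase that shuts off the next step of branched-chain breakdown.

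Of 27 tested amino acid transporters 7 were higher and 4 lower in T3 (median log2 change 0.17). Those called were 40.7%, against 31.3% of all tested genes, and the lower ones lay near the 14.9% over all tested genes. Slc38a2, a sodium-coupled carrier of neutral amino acids, had 119.6, 143, 142 and 116 CPM in T3 1 to 4, against 818, 751, 622 and 578 CPM in glucagon 1 to 4. For Slc38a2 the log2 change was -2.41 ± 0.20 (edgeR adjusted p = 3.98e-08). Slc7a2, a carrier of arginine and lysine, had 391, 298, 307 and 384 CPM in T3 1 to 4, against 1252, 1650.3, 1477 and 1458 CPM in glucagon 1 to 4. For Slc7a2 the log2 change was -2.08 ± 0.19 (edgeR adjusted p = 1.44e-07). Controls held 67.8 to 137 CPM of Slc38a2 and 438 to 791 CPM of Slc7a2, under every glucagon liver in both cases. Slc16a10, which exports aromatic amino acids and also carries thyroid hormone, had 176, 185, 204 and 218 CPM in T3 1 to 4, against 426, 476, 406 and 492 CPM in glucagon 1 to 4. For Slc16a10 the log2 change was -1.20 ± 0.17 (edgeR adjusted p = 2.2e-05). Among those that rose were Slc1a3, a glutamate carrier (2.43 ± 0.50), and Slc7a8, a light chain that exchanges neutral amino acids (1.84 ± 0.39).

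Receptors, carriers and deiodinases of thyroid hormone were called at about the background share. Of 25 tested members, 5 were higher and 3 lower in T3 (32% called, against 31.3% of all tested genes, with a median log2 change of 0.05), and without T3 4 or glucagon 1 the higher ones were 3. Dio1, the deiodinase that both makes and clears T3 and a known T3 target, had 549, 433, 352 and 461 CPM in T3 1 to 4, against 189, 115, 95.1 and 127 CPM in glucagon 1 to 4 (log2 change 1.77 ± 0.31, edgeR adjusted p = 0.000219), with 35.2 to 143 CPM in controls. Serpina7, the thyroxine-binding globulin, had 2.58, 1.05, 2.24 and 2.08 CPM in T3 1 to 4, against 16.5, 10.8, 10.7 and 19.2 CPM in glucagon 1 to 4. For Serpina7 the log2 change was -2.83 ± 0.44 (edgeR adjusted p = 6.87e-05). Controls held 21.9 to 52.9 CPM of Serpina7, above every library of both treated groups. Ttr, the other thyroxine carrier made by liver, was lower in T3 (-0.90 ± 0.19). The receptors themselves were not called: Thra had 14.2, 9.96, 10.4 and 13.4 CPM in T3 1 to 4, against 8.71, 13.5, 18 and 12.1 CPM in glucagon 1 to 4 (log2 change -0.13 ± 0.21, edgeR adjusted p = 0.683), and Thrb had 19.99, 24.2, 20.5 and 23.8 CPM in T3 1 to 4, against 35, 36, 29.4 and 21.3 CPM in glucagon 1 to 4. For Thrb the log2 change was -0.46 ± 0.19 (edgeR adjusted p = 0.0678). The groups overlapped for both, and Thrb passed the test in 4 of the 16 other settings, which were without glucagon 4 (log2 change -0.60, edgeR adjusted p = 0.021), without control 2 (0.0415), after thinning to equal depth (0.0428) and with the 8 libraries alone (0.0411).

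Known T3 target genes of liver were not higher as a block. Of 32 tested members 11 rose in T3, 7 fell and 14 did not pass (median log2 change 0.30), and 8 of the 11 that rose had a control mean nearer glucagon. Cyp7a1, which sets the rate of bile acid synthesis from cholesterol (chr4:6265612-6275633, minus strand, GRCm38), had 109, 208, 286 and 278 CPM in T3 1 to 4, against 12.3, 7.24, 12 and 48.8 CPM in glucagon 1 to 4. For Cyp7a1 the log2 change was 3.47 ± 0.48 (edgeR adjusted p = 1.57e-05). Controls held 72.5 to 114 CPM of it, above every glucagon liver and under T3 2 to 4. Cyp17a1, a steroid hydroxylase, had 587, 276, 370.2 and 317 CPM in T3 1 to 4, against 42.2, 30.8, 40.2 and 40.7 CPM in glucagon 1 to 4 (log2 change 3.33 ± 0.35, edgeR adjusted p = 6.5e-07), with 12.2 to 38.3 CPM in controls and 369 to 686 CPM in combination livers. Ucp2, a mitochondrial carrier, had 119, 79.7, 108 and 79.1 CPM in T3 1 to 4, against 40.5, 40.3, 47.8 and 47.8 CPM in glucagon 1 to 4. For Ucp2 the log2 change was 1.13 ± 0.28 (edgeR adjusted p = 0.00461). Idh3a, a subunit of the NAD-linked isocitrate dehydrogenase, had 76.6, 101, 110.3 and 89.96 CPM in T3 1 to 4, against 46, 41.2, 56.3 and 41 CPM in glucagon 1 to 4. For Idh3a the log2 change was 1.03 ± 0.16 (edgeR adjusted p = 4.65e-05). For these genes every T3 liver exceeded every glucagon liver. Nrp1, a co-receptor of vascular growth factor (log2 change 1.52 ± 0.24, edgeR adjusted p = 7.01e-05), and Cpt1a, the carnitine transferase that admits fatty acids to mitochondria (log2 change 0.47 ± 0.14, edgeR adjusted p = 0.0144), also rose, and Cpt1a lost its call without T3 4 (edgeR adjusted p = 0.0503).

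Several classical T3 targets did not pass the test. Thrsp, a lipogenic nuclear protein long used as a marker of T3 action, had 2992, 2007, 2278 and 1389.6 CPM in T3 1 to 4, against 3444, 1411, 1152 and 1361 CPM in glucagon 1 to 4. For Thrsp the log2 change was 0.23 ± 0.56 (edgeR adjusted p = 0.783). Glucagon 1 stood far above the other glucagon livers and the groups overlapped. Hr, a corepressor induced by T3, had 20.1, 9.44, 12.6 and 15.7 CPM in T3 1 to 4, against 14.8, 3.04, 12.4 and 8.15 CPM in glucagon 1 to 4 (log2 change 0.59 ± 0.46, edgeR adjusted p = 0.356), and controls held 0.749 to 3.91 CPM. The highest control was thus under every T3 liver and under 3 of the 4 glucagon livers. Gpd2, the mitochondrial glycerol phosphate dehydrogenase, had 70.5, 78.5, 67.5 and 69.5 CPM in T3 1 to 4, against 87.9, 65.6, 62.5 and 65 CPM in glucagon 1 to 4. For Gpd2 the log2 change was 0.02 ± 0.16 (edgeR adjusted p = 0.924). Controls held 33.8 to 53.9 CPM of Gpd2, under every T3 liver and every glucagon liver. Me1, the malic enzyme (log2 change -0.70 ± 0.31, edgeR adjusted p = 0.0959), and Klf9 (log2 change -0.22 ± 0.26, edgeR adjusted p = 0.547) overlapped between groups too. A p that misses the threshold does not show equal levels, and the standard errors of Thrsp and Hr are wide. Among targets that fell, Ppargc1a, G6pc, Pck1 and Slc16a10 are also given above under glucagon.

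**Figure D4:**
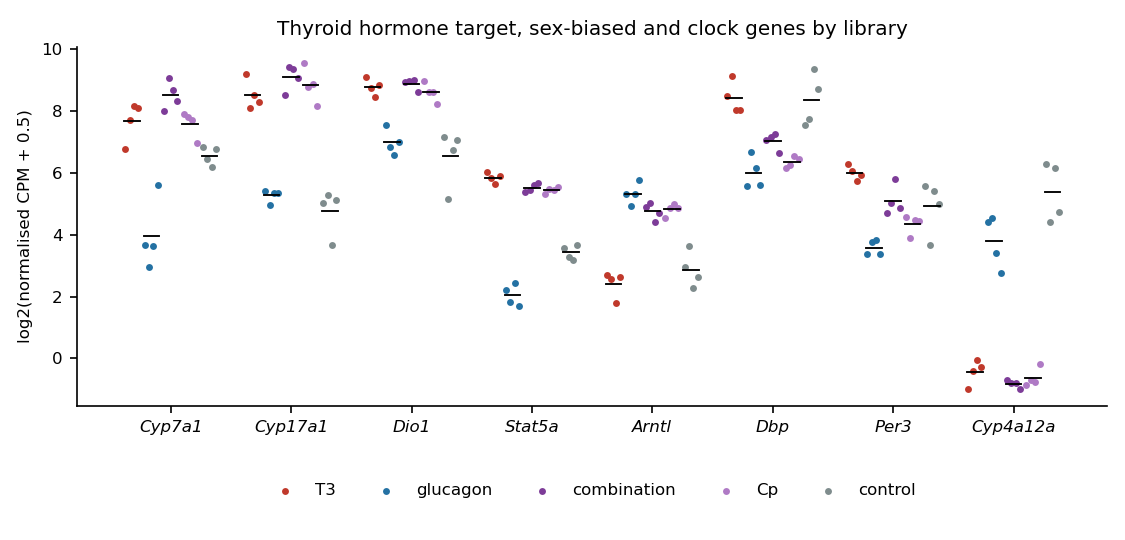
Points are single libraries in the group order T3, glucagon, combination, Cp and control, with black group means of log2(normalised CPM + 0.5) for 8 thyroid target, sex-biased and clock genes. Cyp7a1, Cyp17a1, Dio1, Stat5a and Dbp are higher, and Arntl and Cyp4a12a lower, in each T3 library than in each glucagon library.

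Cholesterol and bile acid genes moved in both directions. In cholesterol synthesis 8 of 25 tested members were lower in T3 and 2 higher (median log2 change -0.25), and without T3 1 or glucagon 1 the lower ones were 5. This is 40% called, against 31.3% of all tested genes, with the higher ones under the 16.4% over all tested genes. Pmvk, the phosphomevalonate kinase, had 22.8, 10.4, 14.9 and 8.63 CPM in T3 1 to 4, against 308, 288, 169.8 and 228 CPM in glucagon 1 to 4. For Pmvk the log2 change was -4.13 ± 0.36 (edgeR adjusted p = 7.09e-08). Lss, which closes the sterol rings, had 15.9, 16.5, 15.5 and 11.3 CPM in T3 1 to 4, against 60.2, 43.4, 35.8 and 48.6 CPM in glucagon 1 to 4. For Lss the log2 change was -1.66 ± 0.19 (edgeR adjusted p = 1.92e-06). Both were lower in every T3 liver than in any glucagon liver. Mvd, the mevalonate pyrophosphate decarboxylase, rose (0.83 ± 0.26), and 1 of the 2 higher members was called without T3 1, T3 3, or glucagon 2, 3 or 4.

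Of 36 tested genes of lipoprotein handling 9 were higher and 6 lower (3 without T3 3), with a median log2 change of -0.07. This is 41.7% called, against 31.3% of all tested genes, with the lower ones near the 14.9% over all tested genes. Sort1, a sorting receptor for apolipoprotein B, had 85, 74.3, 68.5 and 74.8 CPM in T3 1 to 4, against 13.7, 16.2, 12.9 and 13.5 CPM in glucagon 1 to 4. For Sort1 the log2 change was 2.42 ± 0.28 (edgeR adjusted p = 2.43e-06). Apobec1, the enzyme that edits apolipoprotein B mRNA, had 121, 109.7, 112 and 132 CPM in T3 1 to 4, against 45.4, 53.2, 34.1 and 37.2 CPM in glucagon 1 to 4. For Apobec1 the log2 change was 1.48 ± 0.21 (edgeR adjusted p = 1.8e-05). Both were higher in every T3 liver, and the cholesterol exporter Abca1 (-0.96 ± 0.19) and Apoe (-0.59 ± 0.22) were among those lower. In bile acid synthesis and transport, 4 of 34 tested members rose and 8 fell (median -0.10), with 4 lower ones left without T3 3 and glucagon 3 together. This is 35.3% called, near the 31.3% of all tested genes. Abcc3, an exporter of bile acid conjugates into blood, had 26.6, 17.8, 23 and 24.8 CPM in T3 1 to 4, against 110.0, 106, 167 and 126 CPM in glucagon 1 to 4. For Abcc3 the log2 change was -2.46 ± 0.24 (edgeR adjusted p = 2.72e-07). Scp2, the sterol carrier protein, had 203, 296, 205 and 228 CPM in T3 1 to 4, against 1151, 922, 747 and 744 CPM in glucagon 1 to 4. For Scp2 the log2 change was -1.94 ± 0.24 (edgeR adjusted p = 5.88e-06). Beside Cyp7a1, the bile acid receptor Nr1h4 (1.51 ± 0.29), the phospholipid exporter Abcb4 (0.80 ± 0.16) and Hsd3b7 (0.79 ± 0.22) rose.

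Genes of several enzymes of fat synthesis were lower in T3 than in glucagon livers. Of 36 tested members of fatty acid and triglyceride synthesis 11 fell and 6 rose (median log2 change -0.49). The higher ones were 3 without glucagon 2 or glucagon 3, and 2 without both glucagon 3 and T3 3. Those called were 47.2%, against 31.3% of all tested genes, and the higher ones lay near the 16.4% over all tested genes. Acly, which supplies cytosolic acetyl-CoA, had 105, 102, 91.5 and 80.7 CPM in T3 1 to 4, against 1928, 890.1, 958 and 953 CPM in glucagon 1 to 4. For Acly the log2 change was -3.64 ± 0.34 (edgeR adjusted p = 1.67e-07). Scd1, the stearoyl-CoA desaturase, had 14184, 6323, 6501 and 6532 CPM in T3 1 to 4, against 41937, 36010.3, 29780.0 and 35578 CPM in glucagon 1 to 4. For Scd1 the log2 change was -2.10 ± 0.35 (edgeR adjusted p = 0.000131). Srebf1, the transcription factor of lipogenesis, had 414, 439, 386 and 289.9 CPM in T3 1 to 4, against 1356, 1358, 1365 and 1414 CPM in glucagon 1 to 4. For Srebf1 the log2 change was -1.85 ± 0.36 (edgeR adjusted p = 0.000629). T3 1 stood above the other T3 livers for Scd1, yet the groups did not overlap for any of these genes. Lpin1, a phosphatidate phosphatase of triglyceride synthesis and a known cAMP-responsive gene, had 176, 119.7, 234 and 114 CPM in T3 1 to 4, against 1211, 1476, 979 and 1113 CPM in glucagon 1 to 4. For Lpin1 the log2 change was -2.89 ± 0.29 (edgeR adjusted p = 4.29e-07). Agpat6, an acyltransferase of the same pathway, had 106, 111, 108 and 123 CPM in T3 1 to 4, against 318, 396, 369.5 and 403 CPM in glucagon 1 to 4. For Agpat6 the log2 change was -1.73 ± 0.17 (edgeR adjusted p = 3.27e-07). Controls held 133 to 242 CPM of Lpin1 and 98.2 to 164 CPM of Agpat6, under every glucagon liver. They lay between the groups for Acly, at 243 to 680 CPM. For Scd1 they held 16542 to 38168 CPM, above every T3 liver, and for Srebf1 373 to 1346 CPM, under every glucagon liver. Over the 11 lower members, the control mean lay nearer T3 for 5 and nearer glucagon for 6. Fasn, the fatty acid synthase, was not called (log2 change -0.93 ± 0.49, edgeR adjusted p = 0.157) and overlapped between groups, but it passed without T3 1 (log2 change -1.46, edgeR adjusted p = 0.0391). Those that rose included the lipid droplet protein Plin2 (1.89 ± 0.24), Pnpla3 (1.64 ± 0.55) and the carbohydrate response factor Mlxipl (1.04 ± 0.34).

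More of the mitochondrial oxidation genes were lower than higher in T3. In fatty acid oxidation 11 of 42 tested members fell and 6 rose (median log2 change -0.10). Those that fell were 7 without T3 3, and 6 without T3 3 and glucagon 3 together. This is 40.5% called in the main fit, against 31.3% of all tested genes, with the higher ones under the 16.4% over all tested genes. Acadm, the medium-chain dehydrogenase, had 25.4, 25.6, 22.1 and 30.04 CPM in T3 1 to 4, against 45.7, 46.3, 54 and 43.5 CPM in glucagon 1 to 4. For Acadm the log2 change was -0.88 ± 0.16 (edgeR adjusted p = 0.000336). Etfa, which passes electrons on from these dehydrogenases, had 17, 24.5, 20.4 and 19.97 CPM in T3 1 to 4, against 39.99, 38.1, 32.2 and 31.6 CPM in glucagon 1 to 4. For Etfa the log2 change was -0.79 ± 0.16 (edgeR adjusted p = 0.000864). The peroxisomal and microsomal side included genes that rose: Cyp4a31 had 40.2, 56.4, 51.5 and 68.2 CPM in T3 1 to 4, against 2.51, 1.42, 2.51 and 4.43 CPM in glucagon 1 to 4 (log2 change 4.34 ± 0.48, edgeR adjusted p = 1.35e-06), and its relatives Cyp4a14 (2.19 ± 0.51) and Cyp4a10 (1.43 ± 0.36), like the nuclear receptor Ppara (0.87 ± 0.21), were higher. In the tricarboxylic acid cycle 11 of 26 tested members fell (4 without T3 3 and glucagon 3 together), and 2 rose, Idh3a among them (median -0.43; 1 of the 2 without T3 1, T3 2, or glucagon 2, 3 or 4). Fh1, the fumarate hydratase, had 109, 137, 136 and 232 CPM in T3 1 to 4, against 349.9, 324, 376 and 365 CPM in glucagon 1 to 4. For Fh1 the log2 change was -1.21 ± 0.27 (edgeR adjusted p = 0.0018). Idh2, the NADP-linked mitochondrial isocitrate dehydrogenase, was also lower (-0.93 ± 0.22), opposite to Idh3a. In the respiratory chain the 17.8% called lay under the 31.3% of all tested genes: 7 of 45 fell and Cox10, of heme A synthesis, rose (log2 change 0.83 ± 0.17, edgeR adjusted p = 0.00101). Uqcrfs1, the iron-sulfur subunit of complex III (-0.69 ± 0.15), and Sdha of complex II (-0.65 ± 0.17) were lower. The 7 became 4 without T3 1, T3 3, glucagon 1 or glucagon 2, 3 without T3 4, and 2 without T3 3 and glucagon 3 together.

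Genes that differ between the sexes in mouse liver, where pulses of growth hormone set the male pattern, were displaced in these male mice. Of 21 tested female-biased genes 13 were higher in T3 and 2 lower (median log2 change 1.85; 1 lower without T3 2, T3 3, T3 4 or glucagon 3), and of 28 male-biased genes 11 were lower and 2 higher (median -0.80). For 10 of the 13 the control mean lay nearer glucagon, and for 9 of the 11 likewise. Cyp4a12a, a male-specific P450, had 0, 0.262, 0.472 and 0.32 CPM in T3 1 to 4, against 20.7, 22.9, 10.2 and 6.34 CPM in glucagon 1 to 4, with 20.9 to 77.3 CPM in controls and 0 to 0.118 CPM in combination livers. T3 1 was at 0 and no T3 library passed the level of 3 counts by much, so the fitted change of -5.80 ± 0.66 is uncertain in size (edgeR adjusted p = 2.07e-06). Elovl3, a male-biased fatty acid elongase, had 36.4, 58.5, 46.6 and 52.9 CPM in T3 1 to 4, against 406, 253, 248 and 486 CPM in glucagon 1 to 4. For Elovl3 the log2 change was -2.84 ± 0.35 (edgeR adjusted p = 5.57e-06). Controls held 57.7 to 194 CPM of Elovl3, under every glucagon liver, and their mean lay nearer T3. Gstp1, a glutathione transferase, had 43.8, 86.6, 65.2 and 66.3 CPM in T3 1 to 4, against 536, 494, 419.6 and 717 CPM in glucagon 1 to 4. For Gstp1 the log2 change was -3.05 ± 0.40 (edgeR adjusted p = 9.19e-06). The male-biased genes of the list that went the other way were Selenbp2 (2.91 ± 0.82) and Mup1 (2.63 ± 0.69). Of 12 tested major urinary proteins, a male-biased family looked at after its values were seen, 8 were higher in T3 and 2 lower (median 2.37). On the female side, next to Cyp3a16 and Cyp17a1, Abcd2, a peroxisomal transporter, had 19.9, 19.4, 14.7 and 10.2 CPM in T3 1 to 4, against 1.25, 0.582, 3.59 and 2.62 CPM in glucagon 1 to 4 (log2 change 3.02 ± 0.43, edgeR adjusted p = 2.51e-05), and the female-specific factor Cux2 was higher (4.98 ± 1.03). The 2 female-biased genes that fell were Cyp2b10 (-4.85 ± 1.02) and Fmo2 (-1.02 ± 0.37).

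Drug metabolism genes were lower in T3 in 22 of 54 tested cases and higher in 4 (median log2 change -0.58; 2 higher without T3 1, glucagon 2 or glucagon 4). Cyp2c29 had 163, 58.6, 48.8 and 82.5 CPM in T3 1 to 4, against 2041, 1531, 4096 and 3314 CPM in glucagon 1 to 4 (log2 change -4.96 ± 0.76, edgeR adjusted p = 5.57e-05), and controls held 140.1 to 1341 CPM. Ephx1, the microsomal epoxide hydrolase, had 281, 266, 289.8 and 193 CPM in T3 1 to 4, against 619.6, 689, 833 and 728 CPM in glucagon 1 to 4. For Ephx1 the log2 change was -1.48 ± 0.18 (edgeR adjusted p = 5.62e-06). Fmo5, a flavin monooxygenase, had 498, 551, 622 and 575 CPM in T3 1 to 4, against 1622, 1383, 1378 and 1208 CPM in glucagon 1 to 4. For Fmo5 the log2 change was -1.32 ± 0.16 (edgeR adjusted p = 5.82e-06). Controls lay on the glucagon side for Ephx1, at 635 to 897 CPM, and between the groups for Fmo5, at 635 to 1054 CPM. Sult5a1, a sulfotransferase, rose with 56.8, 42.7, 42.6 and 47.1 CPM in T3 1 to 4, against 10.4, 4.91, 4.38 and 6.44 CPM in glucagon 1 to 4 (log2 change 2.85 ± 0.32, edgeR adjusted p = 1.66e-06), and the other 3 that rose were Cyp2a4 (3.93 ± 1.39), Gstt1 (0.96 ± 0.19) and Sult1a1 (0.64 ± 0.22).

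Growth hormone, IGF and secreted liver factors moved both ways, with 9 of 36 tested members higher and 8 lower in T3 (median log2 change 0.21; 5 lower without T3 3, T3 4 or glucagon 2). Igfbp1, a binding protein of insulin-like growth factors that insulin is known to repress, had 55.2, 42.9, 31 and 65.7 CPM in T3 1 to 4, against 918, 377, 212 and 236 CPM in glucagon 1 to 4. For Igfbp1 the log2 change was -3.16 ± 0.71 (edgeR adjusted p = 0.00213). Fst, the activin antagonist follistatin, had 2.08, 2.36, 1.89 and 2.08 CPM in T3 1 to 4, against 21.7, 26.6, 12.4 and 10.3 CPM in glucagon 1 to 4 (log2 change -3.07 ± 0.39, edgeR adjusted p = 6.23e-06), while Inhbe, an activin subunit made by liver, had 98.1, 90.6, 54.5 and 81.8 CPM in T3 1 to 4, against 13.2, 6.47, 13.2 and 14.7 CPM in glucagon 1 to 4. For Inhbe the log2 change was 2.78 ± 0.27 (edgeR adjusted p = 2.79e-07). The antagonist was thus lower and the ligand subunit higher in every T3 liver than in any glucagon liver, while another subunit, Inhbb, was lower (-1.73 ± 0.38). Controls held 51.3 to 113 CPM of Inhbe, which overlaps the T3 livers and lies above every glucagon liver. They held 3.32 to 11.3 CPM of Fst, above every T3 liver. The growth hormone receptor Ghr fell (-1.53 ± 0.26) as Stat5a and Stat5b (0.92 ± 0.17) rose. Fgf21, the fasting hormone of liver, had 60.2, 94.4, 48.4 and 38.7 CPM in T3 1 to 4, against 15.8, 11.8, 19.4 and 22 CPM in glucagon 1 to 4. For Fgf21 the log2 change was 1.81 ± 0.71 (edgeR adjusted p = 0.0596). Its groups did not overlap although the test over all 20 libraries was not passed, and it was passed without control 2 (edgeR adjusted p = 0.00267) and in a fit of the T3 and glucagon libraries alone (edgeR adjusted p = 0.000276).

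In insulin signalling and FOXO targets 8 of 37 tested members fell and 5 rose (median log2 change -0.16), and 3 rose without T3 2 or glucagon 2. The 35.1% called lay near the 31.3% of all tested genes. Arrdc3, an alpha-arrestin, had 50.4, 50.7, 55.4 and 62.6 CPM in T3 1 to 4, against 5.79, 3.36, 8.05 and 4.03 CPM in glucagon 1 to 4. For Arrdc3 the log2 change was 3.36 ± 0.32 (edgeR adjusted p = 2.25e-07). Controls held 52.2 to 158 CPM, so that the glucagon livers were the low ones. Pik3r1, the regulatory subunit of PI3 kinase, had 34.5, 50.3, 52.4 and 41.7 CPM in T3 1 to 4, against 108, 114, 129.8 and 101 CPM in glucagon 1 to 4. For Pik3r1 the log2 change was -1.34 ± 0.18 (edgeR adjusted p = 1.47e-05). Ddit4, an inhibitor of mTOR signalling, had 10.8, 11.8, 21.4 and 11.2 CPM in T3 1 to 4, against 90.2, 54.3, 39.7 and 34.8 CPM in glucagon 1 to 4 (log2 change -1.99 ± 0.34, edgeR adjusted p = 0.000171), and T3 3 stood above the other T3 livers. Pik3r1 and Ddit4 were thus lower in T3, like Irs2, Igfbp1 and Foxo1, and Arrdc3 was higher.

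Clock genes moved in both directions. Of 27 tested members 7 were higher in T3 and 10 lower (median log2 change -0.17; 4 higher without T3 2 or glucagon 1). Arntl, the activator BMAL1, had 6.01, 5.37, 2.95 and 5.75 CPM in T3 1 to 4, against 39.3, 29.7, 39.2 and 53.9 CPM in glucagon 1 to 4. For Arntl the log2 change was -3.02 ± 0.29 (edgeR adjusted p = 2.02e-07). Dbp, an output gene that BMAL1 is known to drive, had 357, 567, 264 and 261 CPM in T3 1 to 4, against 47.3, 102, 71.9 and 47.9 CPM in glucagon 1 to 4. For Dbp the log2 change was 2.43 ± 0.36 (edgeR adjusted p = 3.58e-05). Arntl and Dbp were thus displaced in opposite directions, and combination livers held 20.6 to 32.4 CPM of Arntl, against 4.31 to 12 CPM in controls. Nfil3, a repressor that opposes Dbp, had 14.7, 12.2, 8.49 and 17.4 CPM in T3 1 to 4, against 169.9, 126, 108 and 102 CPM in glucagon 1 to 4. For Nfil3 the log2 change was -3.27 ± 0.27 (edgeR adjusted p = 3.14e-08). Cry2, a repressor of the core loop, had 57.9, 59.1, 47.4 and 59.3 CPM in T3 1 to 4, against 194, 207, 164 and 187 CPM in glucagon 1 to 4. For Cry2 the log2 change was -1.75 ± 0.21 (edgeR adjusted p = 3.32e-06). Per3 (2.47 ± 0.32) and Nr1d1 (1.73 ± 0.30) were higher, while Per1 (-2.13 ± 0.33), Per2 (-2.08 ± 0.26), Cry1 (-2.00 ± 0.25) and Rora (-1.61 ± 0.26) were lower. No label states the hour at which each liver was taken, and its part in these differences was not tested.

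Genes of the unfolded protein and integrated stress responses were lower in T3 livers, with 19 of 34 tested members down and 2 up (median log2 change -0.65; 1 up without T3 4, glucagon 2 or glucagon 3). For 12 of the 19 the control mean lay nearer glucagon, and for the other 7 nearer T3. Dnajb9, a chaperone of the endoplasmic reticulum, had 19.5, 24.6, 19.7 and 32 CPM in T3 1 to 4, against 101, 88, 82.5 and 54.2 CPM in glucagon 1 to 4. For Dnajb9 the log2 change was -1.77 ± 0.28 (edgeR adjusted p = 8.57e-05). Herpud1, of the disposal of misfolded proteins, had 239, 301, 371 and 253 CPM in T3 1 to 4, against 799, 679, 647 and 573 CPM in glucagon 1 to 4. For Herpud1 the log2 change was -1.21 ± 0.18 (edgeR adjusted p = 4.2e-05). Chac1, a glutathione-degrading enzyme induced by ATF4, had 11.7, 9.83, 9.79 and 17.7 CPM in T3 1 to 4, against 86.4, 49.2, 40.7 and 39.6 CPM in glucagon 1 to 4. For Chac1 the log2 change was -2.15 ± 0.31 (edgeR adjusted p = 3.3e-05). Controls held 8.23 to 14.8 CPM of Chac1, under every glucagon liver. Hspa5, the chaperone BiP (-1.23 ± 0.21), and Atf4 itself (-1.01 ± 0.20) were lower, and Trib3 (1.97 ± 0.54) and Xbp1 (0.70 ± 0.22) were the ones that rose.

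Acute phase genes were called at 26.5%, under the background, with 6 of 34 higher and 3 lower in T3 (median log2 change 0.39). Lcn2, the iron-scavenging lipocalin, had 144, 47.3, 241 and 360.0 CPM in T3 1 to 4, against 5.67, 2.59, 8.76 and 11 CPM in glucagon 1 to 4 (log2 change 4.84 ± 1.17, edgeR adjusted p = 0.00367), and Serpina3n, a protease inhibitor, had 678, 455, 499.6 and 1084 CPM in T3 1 to 4, against 299, 237, 262 and 354 CPM in glucagon 1 to 4. For Serpina3n the log2 change was 1.24 ± 0.30 (edgeR adjusted p = 0.00341). T3 4 was the highest of the 8 T3 and glucagon libraries for both and for Saa2, and without it 3 members were higher and 6 lower. Slc30a10, a manganese exporter, was lower (-1.37 ± 0.33).

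Macrophage genes were higher in T3 livers in nearly the whole list. Of 29 tested markers of Kupffer cells and macrophages 26 rose and the other 3 did not pass (median log2 change 1.51; 25 rose without glucagon 3, 24 without T3 3 and 18 without both). Their summed level was 2340 to 3130 CPM in T3 livers, against 949 to 1130 CPM in glucagon livers and 1150 to 2280 CPM in controls. Clec4f, a lectin specific to mouse Kupffer cells, had 214, 183, 188 and 204 CPM in T3 1 to 4, against 68.6, 51.5, 44.1 and 64.5 CPM in glucagon 1 to 4. For Clec4f the log2 change was 1.79 ± 0.16 (edgeR adjusted p = 6.3e-08). Cd5l, a secreted macrophage protein, had 212, 192, 226 and 213 CPM in T3 1 to 4, against 50.9, 41.3, 32.8 and 63.9 CPM in glucagon 1 to 4. For Cd5l the log2 change was 2.16 ± 0.21 (edgeR adjusted p = 3.08e-07). Folr2, a folate receptor of resident macrophages, had 81.5, 73.1, 64.1 and 66.2 CPM in T3 1 to 4, against 22, 17.1, 18.2 and 18 CPM in glucagon 1 to 4. For Folr2 the log2 change was 1.92 ± 0.19 (edgeR adjusted p = 3.32e-07). The scavenger receptor Marco (3.97 ± 0.52), the growth factor receptor Csf1r (1.51 ± 0.19) and the complement genes C1qa (1.47 ± 0.18), C1qb (1.52 ± 0.26) and C1qc (1.53 ± 0.21) rose with them. In whole liver, a difference in the number of cells of a type and a difference in RNA per cell cannot be told apart.

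Interferon-induced genes were higher in T3 in 22 of 28 tested cases, the other 6 not passing (median log2 change 2.11), and their summed level was 990 to 1950 CPM in T3 livers against 443 to 690 CPM in glucagon livers. T3 3 was the highest, and without it 14 rose, and 6 without T3 3 and glucagon 3 together. Controls ran from 561 to 3610 CPM, and control 2 was the highest library of all. For 19 of the 22 the control mean lay nearer T3. For the other 3, which are the genes given next, it lay nearer glucagon. Oas3, an antiviral synthetase, had 15.1, 13.6, 19.9 and 12 CPM in T3 1 to 4, against 2.03, 1.55, 1.29 and 2.21 CPM in glucagon 1 to 4. For Oas3 the log2 change was 3.10 ± 0.59 (edgeR adjusted p = 0.00046). Its relative Oas2 had 31.1, 27.4, 43.8 and 27.2 CPM in T3 1 to 4, against 6.33, 7.44, 5.17 and 9.46 CPM in glucagon 1 to 4 (log2 change 2.20 ± 0.39, edgeR adjusted p = 0.000283), and Gbp3, a GTPase, had 22.7, 14.4, 36.2 and 12.9 CPM in T3 1 to 4, against 2.15, 3.1, 2.3 and 2.92 CPM in glucagon 1 to 4. For Gbp3 the log2 change was 3.05 ± 0.64 (edgeR adjusted p = 0.00124). No T3 liver overlapped a glucagon liver in these 3 genes.

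Cell cycle genes were higher in T3 in 22 of 36 tested cases and lower in 2 (median log2 change 1.12). Without T3 3 there were 13 higher, and 8 without T3 3 and glucagon 3 together. Ccnd1, the cyclin that starts the cycle, had 216, 151, 176 and 219 CPM in T3 1 to 4, against 26.7, 21.9, 21.5 and 17.7 CPM in glucagon 1 to 4 (log2 change 3.12 ± 0.52, edgeR adjusted p = 0.000141), with 18.1 to 231 CPM in controls. Mki67, present in dividing cells, had 14, 14.2, 50.5 and 16.3 CPM in T3 1 to 4, against 2.98, 2, 2.87 and 1.51 CPM in glucagon 1 to 4. For Mki67 the log2 change was 3.32 ± 0.51 (edgeR adjusted p = 5.63e-05). T3 3 stood far above the other T3 livers for Mki67, while Ccnd1 was even across them. The inhibitor Cdkn1a, which arrests the cycle, fell (-1.94 ± 0.65) and Fen1 fell (-1.31 ± 0.30), 1 of the 2 being called without T3 2, T3 4, glucagon 1 or glucagon 4. Macrophage and interferon sums were also higher in T3, and their part in the cell cycle counts was not tested.

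Markers of other cells of the liver were called at 11.1% to 20% per list, under the 31.3% of all tested genes. Of 25 tested genes in the sinusoidal endothelial list 5 were lower, and the other 20 did not pass (median log2 change -0.08). Vwf, the von Willebrand factor, is not particular to the endothelium of sinusoids. It had 16.8, 10.6, 23.1 and 8.63 CPM in T3 1 to 4, against 136, 90.4, 91.2 and 77.5 CPM in glucagon 1 to 4. For Vwf the log2 change was -2.73 ± 0.35 (edgeR adjusted p = 6.29e-06), while controls held 7.54 to 17.6 CPM. Flt1 (-0.88 ± 0.18) and Aqp1 (-0.73 ± 0.17) were lower by less, and summed endothelial levels overlapped, at 975 to 1550 CPM in T3 and 1290 to 1440 CPM in glucagon livers. Stellate and fibroblast genes were higher in 3 of 27 (median 0.23), the collagens Col4a1 (log2 change 1.05 ± 0.30, edgeR adjusted p = 0.0123) and Col5a1 (0.73 ± 0.25) and the receptor Pdgfrb (0.62 ± 0.22). Their number was 1 without T3 1, T3 3, glucagon 1 or glucagon 2, 5 without glucagon 3 and 6 without control 2. Of 14 tested genes in the cholangiocyte list 2 were higher (median 0.38), among them the keratin Krt18 (log2 change 0.96 ± 0.33, edgeR adjusted p = 0.0329). Krt18 is not confined to cholangiocytes in liver, and it lost its call without T3 3, glucagon 2, glucagon 3 or glucagon 4 (edgeR adjusted p up to 0.117). Spp1 was not called (log2 change 0.73 ± 0.38, edgeR adjusted p = 0.161) except with the 8 libraries alone (edgeR adjusted p = 0.00797). Of 16 lymphocyte and granulocyte genes 2 were higher (median 1.21), among them Gzmb, a granzyme of cytotoxic cells (log2 change 1.98 ± 0.47, edgeR adjusted p = 0.00341). Their number was 1 without T3 1, T3 2, T3 3 or glucagon 2, 5 without T3 4, and 6 without glucagon 3, in which Igj, of antibody-secreting cells, was far above the other glucagon livers at 42.1 CPM.

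**Figure D5:**
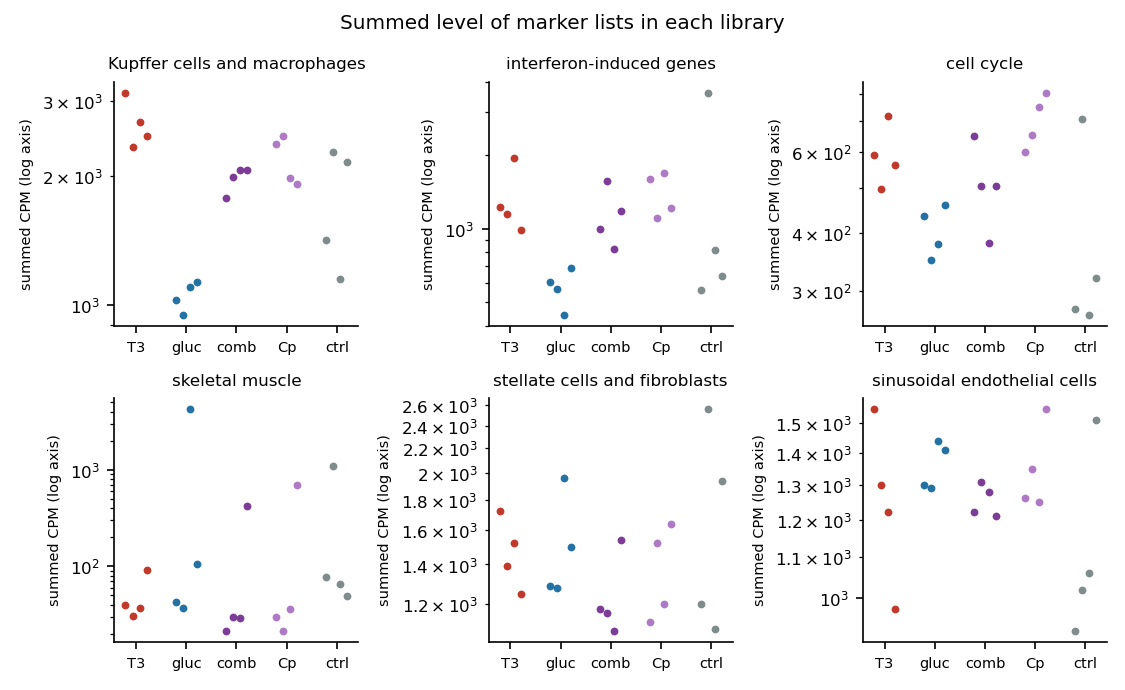
Each point is the summed normalised CPM of 1 marker list in 1 library, on log axes, by group from T3 through glucagon, combination and Cp to control. Macrophage sums are 2340 to 3130 CPM in T3 livers and 949 to 1130 CPM in glucagon livers without overlap, and glucagon 3 stands alone among these 8 libraries for skeletal muscle at 4270 CPM.

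Hepatocyte genes of the periportal zone, which does most urea and glucose synthesis, were lower in T3 in 13 of 24 tested cases and higher in 1 (Ctsc, 0.98 ± 0.24), with a median log2 change of -0.81. Agxt2l1, Hsd17b6, G6pc and Pck1 led them, and Hsd17b6 had 20.8, 14.7, 6.72 and 4.31 CPM in T3 1 to 4, against 234, 487, 567 and 367 CPM in glucagon 1 to 4 (log2 change -5.14 ± 0.72, edgeR adjusted p = 1.94e-05), with 107 to 414 CPM in controls. Albumin (Alb) was lower as well (log2 change -0.93 ± 0.26, edgeR adjusted p = 0.00925). Pericentral genes were called at 24%, under the 31.3% of all tested genes, with 4 of 25 higher and 2 lower (median 0.25). Without T3 1, T3 2 or glucagon 1 there was 1 lower, and without control 2 there were 4. Tbx3, a factor of the cells around the central vein, had 152, 145, 85.6 and 169 CPM in T3 1 to 4, against 31.4, 28.8, 34.6 and 34.6 CPM in glucagon 1 to 4 (log2 change 2.09 ± 0.31, edgeR adjusted p = 3.37e-05), and Cyp7a1, Rhbg (1.22 ± 0.34) and Axin2 (0.98 ± 0.29) were the others that rose. Among hepatocyte identity genes 5 of 21 rose and 6 fell (median 0.25; 3 rose without T3 2, T3 4, or glucagon 1, 2 or 3, and 3 fell without T3 3 and glucagon 3 together). The factor Prox1 had 82.8, 147, 78 and 158 CPM in T3 1 to 4, against 48.4, 46.8, 43.2 and 41.1 CPM in glucagon 1 to 4 (log2 change 1.38 ± 0.21, edgeR adjusted p = 5.8e-05) and was among those that rose, while Tat, Cps1, Alb and Ttr fell.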

How the data were processed

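Per the labels' protocols, a Qiagen kit served for RNA and a Lexogen kit for libraries. The authors deposited raw counts by gene symbol. Per the submitters' processing notes, HTSeq and mm10 were used. No source used here names the aligner, annotation or strand setting, so reads of a gene and of an antisense partner cannot be told apart. Counts for 13319 symbols were read as deposited, without summing or replacing any, and 12 symbols had turned into dates.

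Genes were kept by filterByExpr (minimum count 10, minimum total 15), which left 12907 and dropped 412. All 20 libraries entered an edgeR 4.0.16 quasi-likelihood fit with TMM factors and 5 group means in R 4.3.3 (15 residual and 5 prior degrees of freedom, common dispersion 0.077). p-values were adjusted by Benjamini-Hochberg over all tested genes, and n is mice, 4 a group. That the mice were separate is stated by the series' design text.

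The members and lists were chosen with earlier results of these data known. The text names the 12 highest and 12 lowest called genes that averaged 20 CPM or more without overlap between groups, leaving out predicted genes, the 3 members of smallest p of each of 34 lists, a panel, and further list members chosen after their values were seen. Promoters were taken by the smallest p among called members with the core motif, read gene by gene. Lists are described by counts and medians without a test. Some genes that this rule picks are not reported here; the other 118 were placed in GENCODE M21 (GRCm38) by symbol.

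Alternatives were RLE factors, no filter, DESeq2 1.42.0, the 8 libraries alone, replicate number as a block, thinning to 6091917 counts, and each T3 and glucagon library or control 2 left out. Simulated counts for T3 against glucagon covered 12907 genes. In them 100 genes were changed at each size, none of low count, and all other genes were equal between groups. Of these changes 54% of log2 1 and 90% of log2 2 were recovered, with 9 false among 153 calls. The data gave 4042 calls, so these rates need not hold for the comparison itself.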

Additional observations from a re-analysis of the deposited data

Results flagged for a closer look

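For 236 groups of 4 libraries (118 named genes in T3 and in glucagon), the highest or lowest library was compared with the rest, and 19 stood far from the others by Dixon's 95% criterion. Chance flags about 5% of groups at that criterion.

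In T3 livers, T3 1 was high for Cyp3a16 (298 CPM, others 37.9 to 71.8), Ppp1r3g (7.73, others 1.53 to 2.56) and Scd1 (14200, others 6320 to 6530). T3 3 was high for Ddit4 (21.4 CPM, others 10.8 to 11.8) and Mki67 (50.5, others 14 to 16.3), and low for Cry2 (47.4, others 57.9 to 59.3), Cdkn2c (2.71, others 4.41 to 4.59) and Oat (134, others 175 to 180). T3 4 was high for Adcy1 (3.04 CPM, others 1.18 to 1.3).

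In glucagon livers, glucagon 1 was high for Acly (1930 CPM, others 890 to 958), Thrsp (3440, others 1150 to 1410) and Gpd2 (87.9, others 62.5 to 65.6). Glucagon 3 was high for Igj (42.1 CPM, others 3.02 to 6.79), Myh2 (89.5, others 0 to 1.31), Neb (191, others 17.6 to 26.9) and Actn2 (39.9, others 0.259 to 0.906). Glucagon 4 was high for Cyp7a1 (48.8 CPM, others 7.24 to 12.3), Cox10 (18.2, others 13.5 to 14) and Srebf1 (1410, others 1360).

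Symbols that the filter left out of the tests held counts in single libraries above every control library. In T3 3 these were Cyp11a1 (253 counts), Cyp11b1 (197) and Hsd3b1 (158), enzymes of steroid synthesis in the adrenal cortex, and Ucp1 (115), the uncoupling protein of brown fat. In glucagon 3 they were the lung genes Sftpc (2133 counts), Scgb1a1 (971) and Sftpb (110), and Myl1 (221), Alpk3 (204), Smtnl1 (195), Myh7 (189), Myoz2 (182), Txlnb (172), Nnat (163), Myl2 (159), Ppp1r1a (127), Asb5 (122), Itgb1bp3 (110), Vgll2 (107) and Sgca (103), most of them known from muscle. The part of such tissue in other values of these libraries was not tested.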

How the results depend on the processing

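The count of 4042 called genes was 4034 with RLE factors, 4052 without the filter, 4233 in DESeq2, 5068 with the T3 and glucagon libraries alone, 3762 after thinning, 4393 without control 2 and 2842 without T3 3 and glucagon 3 together. With 1 of the 8 libraries left out it ran from 3335 to 3630, and higher genes from 1722 to 1902. The share of higher calls was 52.3% and ran from 50.7% to 53.3%. With replicate number as a block the count was 4053. Same-numbered T3 and glucagon libraries correlated at -0.0899 to 0.207 after removal of group means, and 2 of 4 correlated best with their own number, so the numbers were not taken to pair them; the block moved no count of all genes by over 1.5 times. Of 118 named genes 107 were called, 97 of these in every one of 16 settings, and 0 reversed. Under the block the calls of Myh2 (edgeR adjusted p = 0.0804) and Actn2 (0.0636) were lost, lower muscle genes became 1, lower female-biased genes 1 and higher lymphocyte genes 4. Fitting the 8 libraries alone raised lower members of the respiratory chain to 15, of insulin signalling to 13, of lipoprotein handling to 10, of amino acid transporters to 7, of pericentral genes to 6, of thyroid handling to 5 and of cholangiocytes to 1. It raised higher members of the acute phase list to 10, the stellate list to 9, bile acids to 7, drug metabolism to 7, gluconeogenesis to 5, amino acid breakdown to 4 and endothelial cells to 3. It left 4 lower muscle genes, 1 lower female-biased gene, and 1 higher and 1 lower lymphocyte gene. DESeq2 gave 7 higher drug metabolism genes, 1 lower muscle gene, and 5 higher and 1 lower lymphocyte genes. Higher lymphocyte genes were 1 with RLE factors, without the filter or after thinning. The cause was not tested. The T3 libraries were the shallowest, and genes near 3 counts there have uncertain changes.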

Other observations

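Some groups were looked at only after their values were seen. Of 15 UDP-glucuronosyltransferases 2 were higher and 9 lower in T3 (median log2 change -0.78), and of 14 carboxylesterases 1 was higher and 6 lower (median -0.66). Among 23 genes of the major histocompatibility complex 8 rose and the other 15 did not pass (median 0.66). Cytosolic ribosomal protein genes gave 0 calls of 42 in edgeR, with 5 at an unadjusted p under 0.05 (median 0.16).

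Genes outside the lists that separated the groups with small spread included Slc25a45, a mitochondrial carrier, with 202, 221, 167 and 200.1 CPM in T3 1 to 4, against 24.4, 25.9, 19 and 27.4 CPM in glucagon 1 to 4. For Slc25a45 the log2 change was 3.03 ± 0.15 (edgeR adjusted p = 2.19e-11). Kctd15, a BTB domain protein, had 13, 11.4, 11.6 and 14.1 CPM in T3 1 to 4, against 173, 203, 133 and 166 CPM in glucagon 1 to 4. For Kctd15 the log2 change was -3.76 ± 0.18 (edgeR adjusted p = 1.22e-11). Emd, the nuclear envelope protein emerin, had 15.1, 13.2, 16.3 and 16.1 CPM in T3 1 to 4, against 195, 210.4, 171 and 177 CPM in glucagon 1 to 4. For Emd the log2 change was -3.63 ± 0.18 (edgeR adjusted p = 2.05e-11). Controls held 39.8 to 57.2 CPM of Slc25a45, 13.5 to 16.4 CPM of Kctd15 and 18.5 to 21.3 CPM of Emd, so that the last 2 were high in glucagon livers and near the T3 level in controls. Akr1c18, which inactivates progesterone, had 58.6, 23.6, 31.3 and 14.7 CPM in T3 1 to 4, against 0.0597, 0.194, 0.0718 and 0.403 CPM in glucagon 1 to 4 (log2 change 7.54 ± 0.57, edgeR adjusted p = 1.23e-08), with 0.226 to 0.628 CPM in controls. The symbol Tph2, of serotonin synthesis, was left out by the filter and had at most 1 count in each T3 library, against 108, 12, 0 and 36 counts in glucagon 1 to 4.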
